A study of Mus musculus with 6 samples.

Results

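Pseudogenes are copies of genes that are annotated as having lost the ability to make the parent's protein. The rows described here are those of a deposited table of 680 mouse genes whose biotype in the GENCODE M21 annotation (assembly GRCm38) names a pseudogene, with chromosome Y left out, and 89 rows met this rule. Of these 89, 83 were processed pseudogenes (79 of the plain class and 4 of the transcribed class) and 6 were unprocessed (4 plain and 2 transcribed). The annotation holds 12713 pseudogenes outside chromosome Y, 10142 of them processed, so the table held a small part of them. Every row of the table had been selected by the study's authors as changed between the groups, per the name of the deposited table, so no row can stand for a pseudogene that did not change.

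The study asked how vesicles from endothelial cells act on bone-forming cells. RNA was sequenced from MC3T3, an established mouse pre-osteoblast cell line. The 3 exosome libraries came from MC3T3 cells kept for 48 hours with exosomes of HUVEC, human umbilical vein endothelial cells, and the 3 control libraries from MC3T3 cells that received no treatment. Both groups are the same cell line, grown in the same serum-containing medium, and carry no other named agent or allele. The labels call the libraries biological repeats without saying that they came from separate cultures, so the spread behind each p-value is that between libraries and may be technical. The values are FPKM, fragment counts scaled to exon length and library size, which can be compared between genes because they are divided by length.

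A processed pseudogene arises when the messenger RNA of a parent gene is reverse transcribed and the copy is inserted elsewhere in the genome by the enzymes of LINE-1 elements. Such a copy lacks introns and usually the parent's promoter, and is transcribed mostly when it lands in or near another transcription unit. Genes with short, abundant messengers in the germ line, above all the ribosomal protein genes, have left many copies in mammalian genomes. An unprocessed pseudogene arises by duplication of a stretch of DNA and keeps the intron and exon structure. Young copies differ from the parent at few bases, so a short read from the parent's messenger can match the pseudogene as well.

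Library depth, recovered from the steps between FPKM values, was 52125805, 54429032 and 51315986 reads in the exosome libraries and 39630444, 43570888 and 48369052 in the control libraries, 1.20 times as deep in the exosome group on average. All 89 pseudogenes gave whole read numbers, within 0.02 reads, in all 6 libraries. Of 13 osteoblast lineage markers the table held 1 (Dmp1), and it held 0 of 10 endothelial and 0 of 8 macrophage and leukocyte markers, so the labelled cell type could not be checked in it. In bulk RNA, fewer cells that express a gene and less of its RNA per cell cannot be told apart.

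To find the parent of each pseudogene, its exon sequence was aligned to all protein-coding transcripts of GENCODE M21. A parent was assigned where the best match outside the pseudogene's own locus reached 80% identity over 50% of its length. This gave 72 pseudogenes a parent, 62 different genes in all, and left 17 without one. Identity ran from 80.1% to 100%, with a median of 95.4%. Where the symbol names a parent before a numbered -ps, as in Rps27a-ps1, the assigned parent was the same in 6 of 6 cases. Crry-ps and Zfp520-ps, which have no such number, were left out of this count. The parent assigned to Crry-ps was Cr1l, and Zfp520-ps had none. A total of 8 parents had more than 1 copy in the table. Hnrnpa3 had 4, and Npm1, Rpl7, Rpl9, Rpl17, Rps2, Rangap1 and Uxs1 had 2 each.

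The copies of one parent differed in how much of its sequence they kept. The stretches printed here, from GENCODE M21 transcripts, are 60 bases of the parent's coding sequence and the aligned bases of its copies, written 5′ to 3′ on the strand of each transcript, with bases that differ from the parent in capitals. They are shown because copies with few capitals and copies with many capitals had different directions in the ribosomal protein families. The first set is Rps2, a protein of the small ribosomal subunit, with Gm6311 at chr13:75954372-75954431 on the plus strand (0 differences) and Gm13204 at chr4:148569653-148569712 on the minus strand (16 differences).
Rps2: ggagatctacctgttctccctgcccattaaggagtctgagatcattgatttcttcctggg
Gm6311: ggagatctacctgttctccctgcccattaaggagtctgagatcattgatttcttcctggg
Gm13204: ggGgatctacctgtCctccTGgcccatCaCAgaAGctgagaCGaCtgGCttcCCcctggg
The second set is Rpl9, of the large subunit, with Gm5451 at chr13:66874108-66874167 on the plus strand (0 differences) and Gm20445 at chr6:65882807-65882866 on the plus strand (8 differences).
Rpl9: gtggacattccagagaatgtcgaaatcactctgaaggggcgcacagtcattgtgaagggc
Gm5451: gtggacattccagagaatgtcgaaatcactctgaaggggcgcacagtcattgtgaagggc
Gm20445: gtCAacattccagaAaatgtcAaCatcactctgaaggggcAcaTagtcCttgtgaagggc
The third set is Npm1, which encodes nucleophosmin, a nucleolar chaperone of ribosome assembly, with Gm14681 at chrX:66778742-66778801 on the minus strand (0 differences) and Gm5611 at chr9:17030540-17030599 on the plus strand (1 difference).
Npm1: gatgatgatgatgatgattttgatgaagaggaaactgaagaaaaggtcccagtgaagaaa
Gm14681: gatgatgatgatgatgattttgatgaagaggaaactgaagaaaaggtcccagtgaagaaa
Gm5611: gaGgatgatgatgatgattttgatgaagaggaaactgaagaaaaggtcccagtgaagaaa

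Of the 89 pseudogenes, 34 averaged higher in the exosome group than in the control group, and 55 averaged lower. On the scale log2(FPKM + 1), which understates changes of weakly expressed genes, the median difference (exosome minus control) was -0.22 over the pseudogenes and -0.13 over all 680 genes. In a limma fit across the 680 genes, with Benjamini-Hochberg adjustment and a threshold of 0.05, 20 pseudogenes rose and 34 fell. The shares over the whole table were 15.4% risen and 43.8% fallen, together 59.3%, and 60.7% of the pseudogenes passed. On the recovered reads, limma-voom called 78 pseudogenes, against 94.4% of the 661 genes with recovered reads. These adjusted p-values are too small as a measure of significance, because the rows were selected as changed on the same libraries. The exosome and control values did not overlap for 75 pseudogenes, against 86.9% of the table. The share with the higher mean was 38.2% of pseudogenes, 26.0% of the table and 24.2% of the 591 other rows. The median of the 680 genes was itself lower with exosomes, at 0.15 in the exosome and 0.29 in the control libraries on the log2 scale, a shift of -0.15. Relative to that shift, 38 of the 89 pseudogenes were higher, against 360 of the 680 genes and 322 of the 591 other rows. The pseudogenes thus had the larger share of higher values before centring and the smaller share after it. Centred on the table's median, 28 pseudogenes passed as higher and 13 as lower, and 212 and 112 genes of the table did. The uncentred total of 54 dropped to 20 without exosome library 2 and to 25 without exosome library 3. At an identity to the nearest coding gene of 95% or more the sign was mostly positive, and below it mostly negative, as the plot of difference against identity shows.

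**Figure D1:**
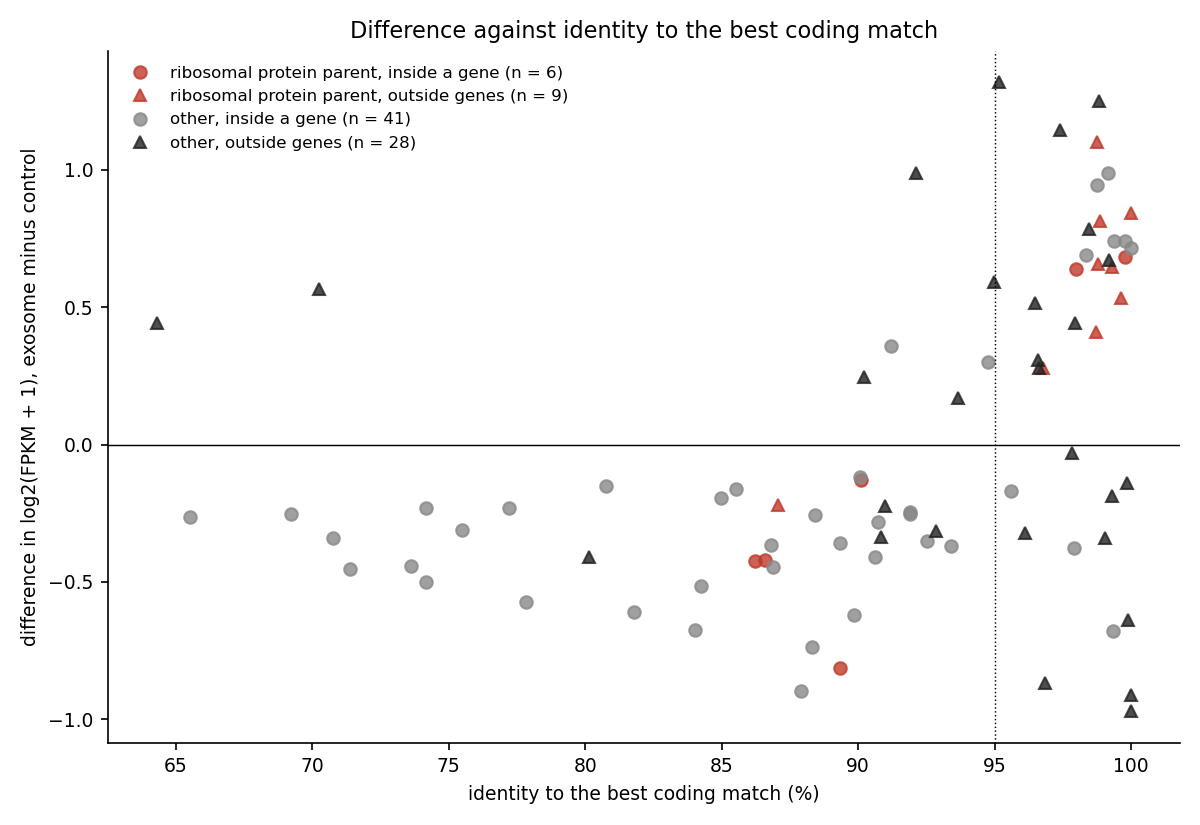
Difference in log2(FPKM + 1), exosome minus control, against the identity of each pseudogene to its best coding match, for the 84 pseudogenes with a match over at least 50% of their length (5 are not shown). Each symbol is 1 pseudogene, red for a ribosomal protein parent and grey or black for others, a circle inside another gene and a triangle outside, and points right of the 95% line lie mostly above 0, points left of it mostly below.

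Levels were low for most members. The mean FPKM of a pseudogene ran up to 61.8 in the exosome group, with a median of 0.270, and up to 27.8 in the control group, with a median of 0.525. In 31 pseudogenes at least 1 group mean reached 1 FPKM, and in the other 58 neither did. Direction differed with this level, with 23 of the 31 higher with exosomes and 11 of the 58. In a limma fit of only the rows at 1 FPKM or more, 19 of the 31 pseudogenes passed as higher and 7 as lower. Of all 173 genes in that fit, 63 passed as higher and 99 as lower. Means by level were not counted for the other rows of the table. The pseudogenes with the higher mean had a median of 49.0 reads per exosome library and 18.8 per control library, while those with the lower mean had 3.67 per exosome library and 15 per control library.

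Among the 83 processed pseudogenes, 32 were higher with exosomes and 51 lower, of which 20 rose and 33 fell. The threshold was passed by 63.9% of the 83, near the 59.3% of all 680 genes, of which 15.4% rose and 43.8% fell. Among the 6 unprocessed ones 2 were higher and 4 lower, and 1 fell. That 1 is Gm3650, a copy of Spg11, which was listed at 0 FPKM in all 3 exosome libraries and had 0.135, 0.0922 and 0.0830 FPKM in the control libraries (limma adjusted p = 0.0161, and up to 0.0527 without exosome library 2 or 3). Relative to the shift of the table's median Gm3650 was not lower (limma adjusted p = 0.923). A count of 6 is too small to set the classes against each other, and no test of that difference was run.

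Direction among the processed pseudogenes differed with identity to a coding gene. Called near-identical here are the 34 with at least 95% identity over at least 50% of their length, a limit chosen after the values were seen. Of these 34, 24 were higher with exosomes and 10 lower, with 13 risen, 8 fallen and a median log2 difference of 0.64. Their median level was 1.74 FPKM with exosomes and 1.05 in controls. Of the 49 less identical or unmatched ones, 8 were higher and 41 lower, with 7 risen, 25 fallen and a median of -0.28. The threshold was passed by 61.8% of the 34 and 65.3% of the 49, near the 59.3% of all 680 genes. Of all 680 genes, 15.4% rose and 43.8% fell. The share with the higher mean was 70.6% of the 34 and 16.3% of the 49, against 26.0% of all 680 genes. Relative to the shift of the table's median, 25 of the 34 and 10 of the 49 were higher, against 360 of the 680 genes. The members nearest to the limit were Gm14794, an Atp5c1 copy at 95.2%, and Gm5611, an Npm1 copy at 94.98% that fell just short, and both had the higher mean with exosomes. With limits of 90% and 97%, near-identical copies were higher in 29 of 49 and 20 of 28 cases. The near-identical side differed by parent, here with unprocessed copies counted too. With a ribosomal protein parent 10 of 10 were higher (6 risen, 0 fallen), with other parents 15 of 27 (7 risen, 9 fallen). Of the less identical copies with other parents 6 of 30 were higher. Whether identity, parent or level goes with direction was not tested.

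Before centring, copies inside another gene had about the table's share of higher means, and copies outside had a larger one. Of the 89 pseudogenes, 49 lay within the span of another gene, 45 of them without touching its exons, and of these 49, 10 were higher with exosomes and 39 lower, a share of 20.4% higher against 26.0% of the table. Of the 40 outside other genes, 24 were higher and 16 lower. Relative to the shift of the table's median, 12 of the 49 inside and 26 of the 40 outside were higher, against 360 of the 680 genes. The share inside was then below that of the table. The difference between the positions was not tested. Among less identical processed copies inside a gene, 2 of 37 were higher, and 1 rose and 21 fell. Among less identical ones outside genes 6 of 12 were higher. Near-identical copies were mostly higher in both places, at 8 of 11 inside and 16 of 23 outside. On the strand of the host gene 5 of 17 were higher, on the opposite strand 5 of 29, and of 3 with hosts on both strands 0. The strand setting of the authors' counting is not given in the sources used here, so reads of a copy and of unspliced host RNA cannot be told apart.

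**Figure D2:**
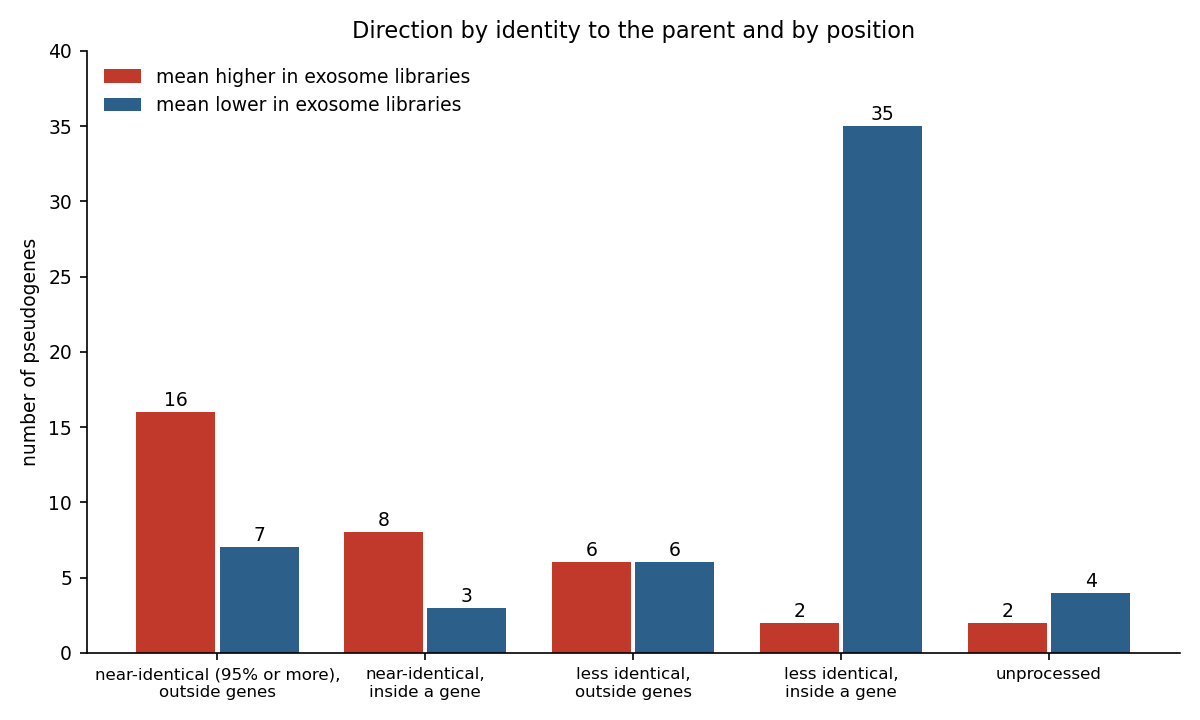
Number of pseudogenes with the higher or the lower mean in the exosome group. Processed ones are split by identity to a coding gene (95% or more, or less) and by position inside or outside another gene. The last pair of bars gives the 6 unprocessed ones, 2 higher and 4 lower. Of the 37 less identical copies inside a gene, 2 were higher and 35 lower.

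Copies of ribosomal protein genes formed the largest group of related parents, with 15 pseudogenes of 11 parents. They fell into 10 that were higher with exosomes and 5 that were lower, 4 of them also relative to the shift of the table's median. The 10 were higher by 1.93 to 6.13 times in mean FPKM, with a median of 2.21 times. The largest of these ratios, that of Gm5045, rests on very few control reads. The 10 higher ones were 96.8% to 100% identical to their parents, and 42.2% to 100% of their stretches of 50 bases occurred exactly in transcripts of another gene. The 5 lower ones were 86.2% to 90.1% identical, with 0% to 13.8% of such stretches shared. For a near-identical copy, the value is uncertain, since reads of the parent or of other copies can be counted with it, and how the authors' counting placed such reads is not given in the sources used here. Gm6311, for example, had 24 other annotated genes within 95% identity of it.

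Gm12174, a copy of the large-subunit gene Rpl7 at chr11:46727818-46728630, had the highest level of the 15. It had 13.0, 13.9 and 12.7 FPKM in the exosome libraries and 7.91, 5.00 and 4.40 FPKM in the control libraries. Every exosome library was above every control library, and it rose 2.28-fold (13.2 ± 0.632 FPKM with exosomes and 5.77 ± 1.88 in controls, SD, n = 3 each, log2 difference 1.10 ± 0.20 SE, limma adjusted p = 0.0132). The second Rpl7 copy, Gm5045 at chr15:59210908-59211717, was far weaker, with 0.237, 0.250 and 0.313 FPKM in the exosome libraries and 0, 0.0283 and 0.102 FPKM in the control libraries. These are 10, 11 and 13 exosome reads and 0, 1 and 4 control reads, again without overlap (log2 difference 0.28 ± 0.05 SE, limma adjusted p = 0.0117). Both Rpl7 copies stayed past the threshold whichever library was left out.

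The Rps2 copies moved in opposite directions. Gm6311, the copy at 98.9% identity, had 2.25, 3.18 and 3.71 FPKM in the exosome libraries and 1.58, 1.54 and 0.801 FPKM in the control libraries, and rose 2.33-fold (limma adjusted p = 0.0265). Gm13204, at 86.6% identity and on the strand opposite its host Exosc10, had 0.421, 0.313 and 0.237 FPKM in the exosome libraries and 0.615, 0.895 and 0.806 FPKM in the control libraries, and fell to 0.420 of the control mean (limma adjusted p = 0.0160). Neither copy's groups overlapped. Without exosome library 2 both lost the call, Gm6311 at a limma adjusted p of 0.0779 and Gm13204 at 0.0525, and Gm6311 lost it also without exosome library 3 (0.0733).

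The Rpl9 pair had the same signs as the Rps2 pair, but neither copy passed the threshold. Gm5451, at 98.8% identity, had 1.33, 2.82 and 1.38 FPKM in the exosome libraries and 0.697, 1.03 and 0.571 FPKM in the control libraries (limma adjusted p = 0.0543). Gm20445, at 86.2% identity, had 0.102, 0 and 0 FPKM in the exosome libraries and 0.0893, 0.609 and 0.512 FPKM in the control libraries (limma adjusted p = 0.0661). Gm5451 did not overlap between groups, while control library 1 of Gm20445 lay within the exosome values, and without it Gm20445 passed (0.0120). Both Rpl17 copies had the higher mean with exosomes and neither passed, with means of 1.64 FPKM in the exosome and 0.828 FPKM in the control libraries for Rpl17-ps9 (limma adjusted p = 0.117). For Gm10362 the means were 0.533 FPKM in the exosome and 0.141 FPKM in the control libraries (limma adjusted p = 0.0659).

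Of the remaining copies at high identity, Gm9396 (Rpl12), Gm11478 (Rpl13a) and Gm9385 (Rpl24) come from large-subunit genes, and rose by 2.04 to 2.15 times. Gm9396 had 2.03, 2.40 and 2.10 FPKM in the exosome libraries and 1.42, 0.607 and 1.13 FPKM in the control libraries (limma adjusted p = 0.0260). Gm11478 had 1.47, 2.15 and 3.16 FPKM in the exosome libraries and 0.927, 1.26 and 0.966 FPKM in the control libraries (limma adjusted p = 0.0425). Gm9385 had 2.32, 2.53 and 2.93 FPKM in the exosome libraries and 1.28, 0.778 and 1.75 FPKM in the control libraries (limma adjusted p = 0.0272). All 3 were free of overlap, and none kept its call throughout the 6 fits without 1 library. Gm9396 lost it without any 1 exosome library or control library 3 (limma adjusted p up to 0.0779), Gm11478 in all fits but that without exosome library 1 (up to 0.105), and Gm9385 without any 1 exosome library or control library 1 (up to 0.0784). Gm9843 is 100% identical to Fau, which encodes a fusion protein that releases ribosomal protein S30. It had 7.25, 13.3 and 11 FPKM in the exosome libraries and 6.09, 6.68 and 3.50 FPKM in the control libraries. Its groups did not overlap, yet it missed the threshold (log2 difference 0.84 ± 0.29 SE, limma adjusted p = 0.0550), which it passed without exosome library 1 (0.0494).

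Lower among the ribosomal copies, besides Gm13204 and Gm20445, were Rps12-ps26, Rps27a-ps1 and Gm6333, all of which fell. Rps12-ps26 had 0.115, 0.331 and 1.05 FPKM in the exosome libraries and 1.67, 1.38 and 1.61 FPKM in the control libraries (log2 difference -0.81 ± 0.23 SE, limma adjusted p = 0.0345). Rps27a-ps1 was at 0 in all exosome libraries against 4, 2 and 4 reads in the controls, and Gm6333, an Rpl7a copy, was at 0 in all exosome libraries, against 2, 4 and 4 reads in the controls. The limma adjusted p was 0.0162 for Rps27a-ps1 and 0.0180 for Gm6333, and no fold is given at so few reads. Rps12-ps26 kept its call only without exosome library 3 (limma adjusted p up to 0.0982 in the other 5 fits), Rps27a-ps1 lost it without exosome library 2 (0.0539) or 3 (0.0516), and Gm6333 without any 1 exosome library (up to 0.0582). Relative to the shift of the table's median none of the 3 passed. Rps12-ps26 then had a log2 difference of -0.67 (limma adjusted p = 0.0606), Rps27a-ps1 one of -0.07 (0.319), and Gm6333 changed sign to 0.02 (0.633).

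Of 86 coding genes for cytosolic ribosomal proteins, 1 was a row of the table, so the parents of the 15 copies could not be set beside them. That gene is Rps27, of the small subunit, at chr3:90212522-90213651. It had 68.9, 121 and 65.7 FPKM in the exosome libraries and 31.6, 32.6 and 17.8 FPKM in the control libraries, without overlap, and rose (log2 difference 1.59 ± 0.34 SE, limma adjusted p = 0.0183).

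**Figure D3:**
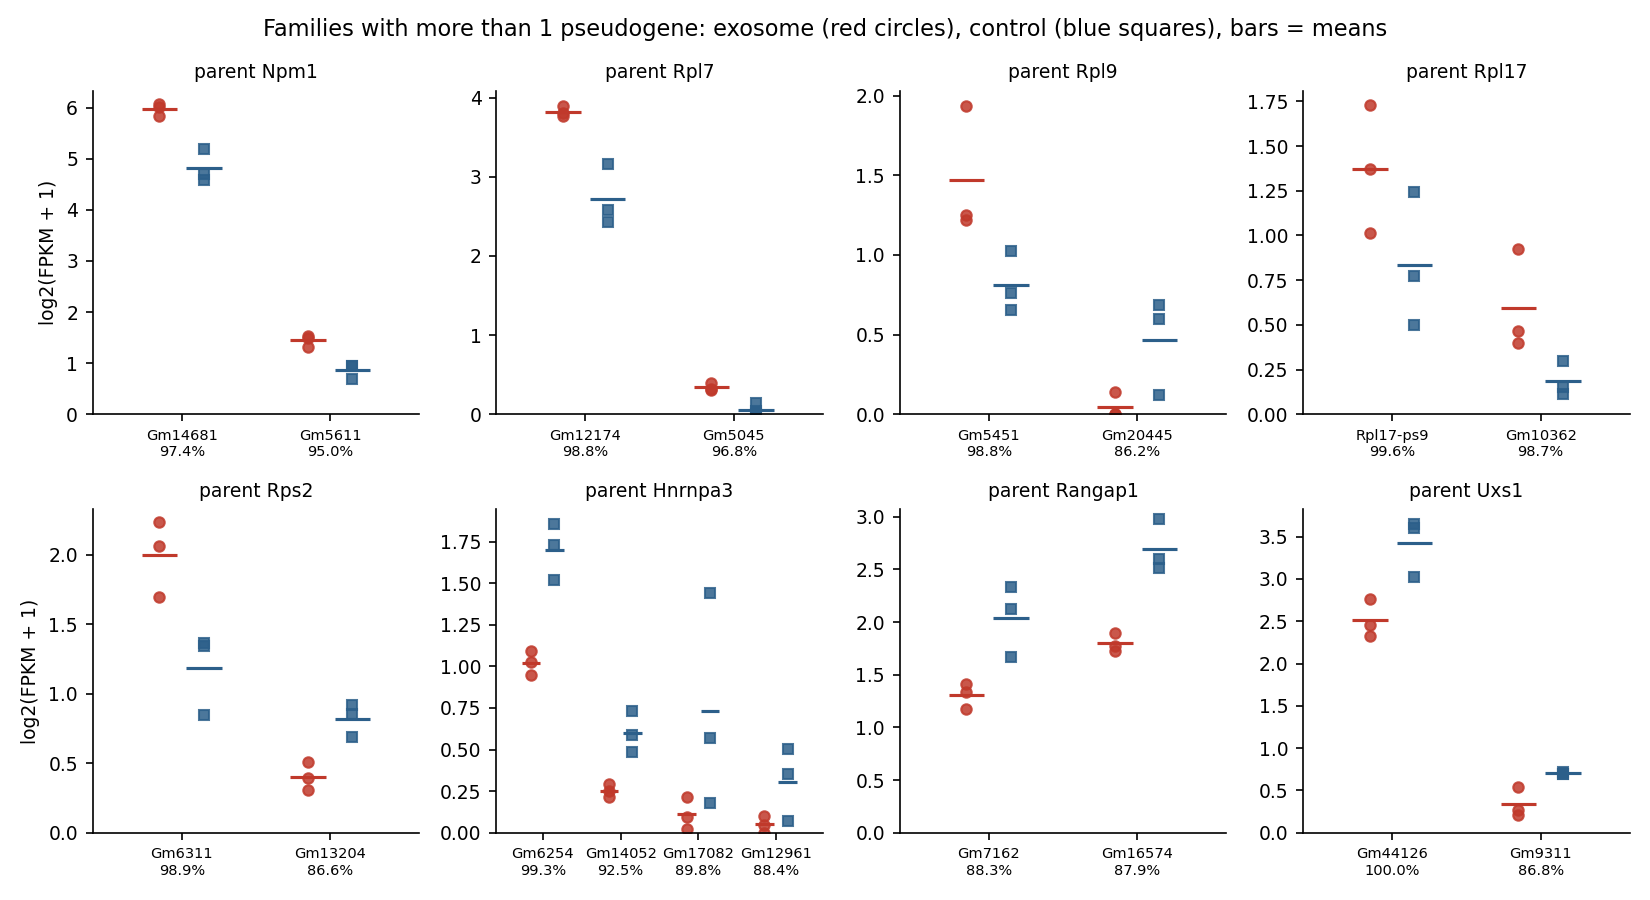
FPKM per library on a log2(FPKM + 1) axis for pseudogenes of parents with more than 1 copy, with the identity of each copy to its parent. Each panel has its own scale, each point is 1 library (exosome in red, left of control in blue) and each bar is the mean of 3 libraries, and in the Rps2 and Rpl9 families the copy of higher identity is higher with exosomes and the other lower.

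The Npm1 copies held the highest level of any pseudogene in the table. Gm14681 on the X chromosome, at chrX:66778442-66778852, matched Npm1 at 97.4% and had 66.0, 56.1 and 63.2 FPKM in the exosome libraries and 35.4, 23.0 and 25.1 FPKM in the control libraries. The groups were far apart, and it rose 2.22-fold (61.8 ± 5.08 FPKM with exosomes and 27.8 ± 6.61 in controls, SD, n = 3 each, log2 difference 1.14 ± 0.17 SE, limma adjusted p = 0.00898). Gm5611 on chromosome 9 had 1.89, 1.49 and 1.83 FPKM in the exosome libraries and 0.918, 0.620 and 0.922 FPKM in the control libraries, and rose 2.12-fold without overlap (limma adjusted p = 0.0104). Both kept their calls whichever library was left out. Npm1 itself is not a row of the table, and the copies share sequence, so they are not independent measurements.

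The other risen copies came from parents of several roles. BC002163, at 99.4% identity to Ndufs5 of respiratory complex I, had 1.26, 1.21 and 1.04 FPKM in the exosome libraries and 0.237, 0.216 and 0.454 FPKM in the control libraries, a 3.87-fold rise (limma adjusted p = 0.00589). CT025601.1, at 92.1% identity to Tmem167, had 1.94, 2.74 and 1.20 FPKM in the exosome libraries and 0.332, 0.503 and 0.544 FPKM in the control libraries, a 4.26-fold rise (limma adjusted p = 0.0171). Gm13493, a copy of the cyclophilin A gene Ppia at 99.2%, had 3.89, 3.20 and 2.77 FPKM in the exosome libraries and 1.64, 1.72 and 1.68 FPKM in the control libraries (limma adjusted p = 0.00875). None of the 3 overlapped between groups or lost its call when any 1 library was left out, and CT025601.1 is the 1 of them below 95% identity.

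Copies of Atp2a2 (the calcium pump SERCA2), Vkorc1l1 (a vitamin K epoxide reductase) and Snrpc (a protein of the U1 splicing particle) also rose, each above 98% identity. The Atp2a2 copy Gm30970 averaged 3.53 ± 0.773 FPKM with exosomes and 1.32 ± 0.620 in controls (SD, n = 3 each, limma adjusted p = 0.0243). The Vkorc1l1 copy Gm5417 averaged 4.53 ± 0.735 FPKM with exosomes and 2.33 ± 0.690 in controls (SD, n = 3 each, limma adjusted p = 0.0228). The Snrpc copy Gm2991 averaged 2.69 ± 0.324 FPKM with exosomes and 1.34 ± 0.654 in controls (SD, n = 3 each, limma adjusted p = 0.0442). Their groups did not overlap, but the calls depended on single libraries. Gm30970 lost its call without exosome library 2 or 3 or control library 1 (limma adjusted p up to 0.0706), Gm5417 without exosome library 2 or 3 or control library 2 or 3 (up to 0.0660), and Gm2991 in all fits but that without control library 1 (up to 0.120).

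A pair of risen copies had no parent at the limits used. The best coding match of Gm18329 was Hmgb3, at 64.3% identity. That of Gm29460 was the ribosomal protein gene Rpl7a, at 70.25% identity over 91.0% of its length. Gm29460 is thus not among the ribosomal copies counted above, and it went the other way from the less identical ones there. Gm18329 had 1.24, 0.998 and 0.993 FPKM in the exosome libraries and 0.471, 0.507 and 0.597 FPKM in the control libraries (limma adjusted p = 0.00684), and kept its call in all 6 fits without 1 library. Gm29460 had 1.83, 1.85 and 2.16 FPKM in the exosome libraries and 1.38, 0.771 and 0.869 FPKM in the control libraries (limma adjusted p = 0.0190), and lost its call without exosome library 2 (0.0566), exosome library 3 (0.0630) or control library 3 (0.0502). Neither shared a 50-base stretch with transcripts of another gene, and both lie outside other genes.

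Several copies with high levels had spreads too wide for a call. Gm16418, at 98.8% identity to Uqcr11 of respiratory complex III, had 24.1, 45.9 and 71.6 FPKM in the exosome libraries and 23.5, 19.6 and 11.6 FPKM in the control libraries (log2 difference 1.25 ± 0.46 SE, limma adjusted p = 0.0634). The lowest exosome library was only just above the highest control library, and without it (exosome library 1) the copy passed (limma adjusted p = 0.0382). Gm14794, the copy of the ATP synthase gene Atp5c1, had 1.20, 1.15 and 11.7 FPKM in the exosome libraries and 0.526, 0.359 and 0.861 FPKM in the control libraries, so exosome library 3 alone set its mean (limma adjusted p = 0.158). Gm7901, a copy of Phgdh, the first enzyme of serine synthesis, averaged 3.75 FPKM with exosomes and 1.36 in controls (limma adjusted p = 0.0926). Gm15432 averaged 2.45 FPKM with exosomes and 0.855 in controls (limma adjusted p = 0.0973, and 0.0318 without exosome library 1), and the Cop1 copy Gm16199 averaged 1.42 FPKM with exosomes and 0.319 in controls, with overlapping groups (limma adjusted p = 0.198).

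**Figure D4:**
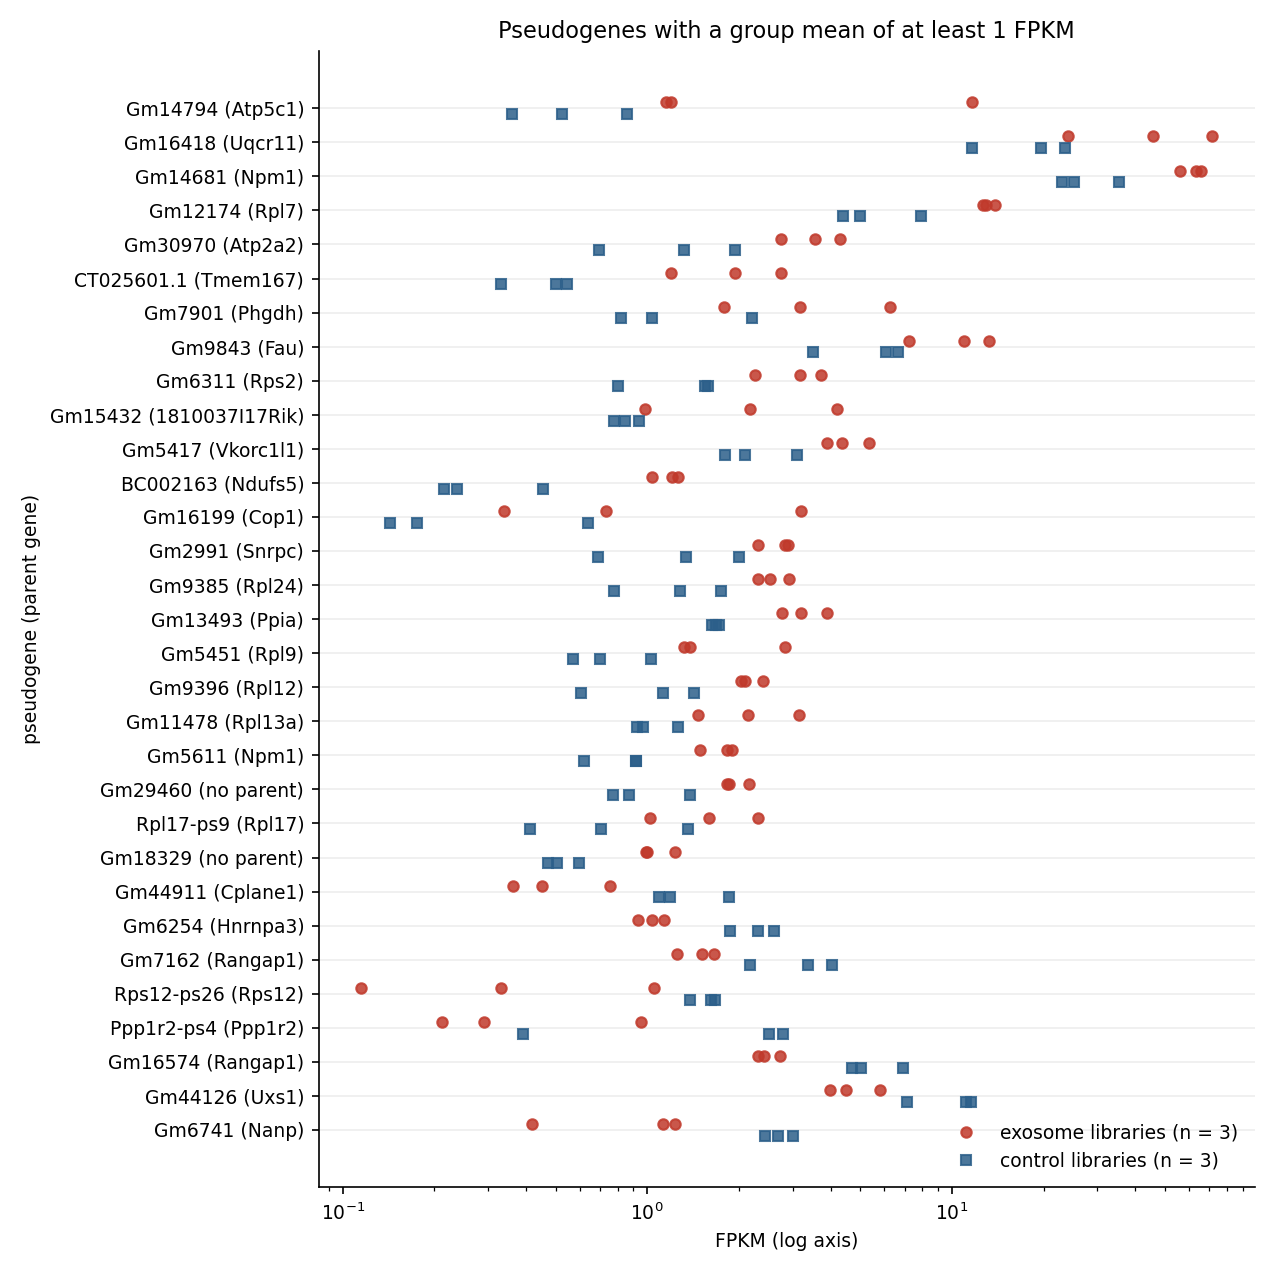
FPKM of the pseudogenes with a group mean of at least 1 FPKM, per library, on a log axis, with exosome points (red circles) above control points (blue squares) in each row and rows ordered by the difference in log2(FPKM + 1). The exosome points of Gm14681 lie right of all its control points, while those of Gm44126, Gm16574 and Gm6741 lie left of theirs.

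Hnrnpa3 encodes an RNA-binding protein of the nuclear ribonucleoprotein family. All 4 Hnrnpa3 copies had the lower mean with exosomes, and 2 fell, in a table in which 43.8% of genes fell and 26.0% had the higher mean. Gm6254, at 99.3% identity, had 0.931, 1.13 and 1.04 FPKM in the exosome libraries and 2.61, 1.86 and 2.31 FPKM in the control libraries (log2 difference -0.68 ± 0.10 SE, limma adjusted p = 0.00754). Gm14052, at 92.5%, had 0.223, 0.160 and 0.189 FPKM in the exosome libraries and 0.661, 0.401 and 0.501 FPKM in the control libraries (limma adjusted p = 0.0161). Neither had overlapping groups, and Gm14052 lost its call without exosome library 2 (0.0554) or 3 (0.0507) and relative to the shift of the table's median (log2 difference -0.20, limma adjusted p = 0.0778). Gm17082 averaged 0.0812 FPKM with exosomes and 0.776 in controls, and Gm12961 averaged 0.0360 FPKM with exosomes and 0.246 in controls, both with overlap (limma adjusted p = 0.140 and 0.0983). Without control library 1, Gm12961 passed (0.0186). All 4 lie inside other genes, and Gm6254 and Gm17082 share a host, Tm9sf2, and its strand. The single copies of the related genes Hnrnpa1 (Gm11860) and Hnrnpa2b1 (Gm5778) were lower as well, without passing (limma adjusted p = 0.108 and 0.0670).

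The Rangap1 copies both lie inside Airn, a long non-coding RNA that silences its imprinted neighbours in mice. Rangap1 encodes the GTPase activator of Ran in nuclear transport. Gm16574, at chr17:12818793-12819537 on the strand of Airn, had 2.32, 2.42 and 2.72 FPKM in the exosome libraries and 5.05, 4.71 and 6.91 FPKM in the control libraries (log2 difference -0.90 ± 0.14 SE, limma adjusted p = 0.00898). Gm7162, at chr17:12819819-12820842 on the opposite strand, had 1.52, 1.26 and 1.66 FPKM in the exosome libraries and 4.04, 3.36 and 2.18 FPKM in the control libraries (log2 difference -0.74 ± 0.18 SE, limma adjusted p = 0.0260). Exosome values were below all control values in both. Airn was the only host gene that was itself a row, with 3.49, 2.76 and 3.56 FPKM in the exosome libraries and 6.84, 6.82 and 7.76 FPKM in the control libraries (log2 difference -0.93 ± 0.09 SE, limma adjusted p = 0.00512). Gm16574 and Airn kept their calls whichever library was left out, and Gm7162 lost its call without any 1 exosome library or control library 2 (limma adjusted p up to 0.0779). Whether the copies are transcribed apart from Airn was not tested.

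Both Uxs1 copies fell. Uxs1 encodes the enzyme that makes UDP-xylose, the first sugar donor of proteoglycan chains. Gm44126, at 100% identity and chr6:76284416-76284929, was the most abundant fallen pseudogene, with 3.99, 4.5 and 5.80 FPKM in the exosome libraries and 7.12, 11.2 and 11.6 FPKM in the control libraries (log2 difference -0.91 ± 0.21 SE, limma adjusted p = 0.0224). Gm9311, at 86.8%, had 0.454, 0.203 and 0.154 FPKM in the exosome libraries and 0.616, 0.651 and 0.619 FPKM in the control libraries (limma adjusted p = 0.0269). Groups did not overlap in either, but Gm44126 lost its call without exosome library 1 or 2 or control library 2 or 3 (limma adjusted p up to 0.0692), and Gm9311 kept its call only without exosome library 1 (up to 0.0802 in the other 5 fits). Relative to the shift of the table's median Gm9311 had a log2 difference of -0.22 and did not pass (limma adjusted p = 0.0899).

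Nanp, a phosphatase of sialic acid synthesis, was the only assigned parent that was a row of the table. Its copy Gm6741, at chr17:91236811-91237557 and 100% identical over its whole length, had 1.13, 1.23 and 0.417 FPKM in the exosome libraries and 2.43, 3.01 and 2.68 FPKM in the control libraries. It fell without overlap, and in every fit without 1 library (log2 difference -0.97 ± 0.19 SE, limma adjusted p = 0.0162). Nanp had 0.193, 0.0247 and 0.406 FPKM in the exosome libraries and 0.0509, 0.0771 and 0.0139 FPKM in the control libraries, which overlapped (log2 difference 0.19, limma adjusted p = 0.181). Since the copy equals part of Nanp base for base, the division of reads between them is uncertain.

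Other fallen copies spanned the range of identity. Gm11870, at 81.8% identity to the tubulin gene Tuba1a, had 0.348, 0.306 and 0.177 FPKM in the exosome libraries and 0.993, 0.972 and 0.876 FPKM in the control libraries (limma adjusted p = 0.00512). Gm12424, with no parent at the limits used, had 0, 0.164 and 0 FPKM in the exosome libraries and 0.677, 0.873 and 0.740 FPKM in the control libraries (limma adjusted p = 0.00512). Both kept their calls without any 1 library. Gm44911, at 99.9% identity to the cilium gene Cplane1, averaged 0.521 ± 0.205 FPKM with exosomes and 1.38 ± 0.418 in controls (SD, n = 3 each, limma adjusted p = 0.0258), and Gm16179, an 84.3% copy of the fatty acid carrier gene Fabp3, averaged 0.0679 ± 0.0788 FPKM with exosomes and 0.529 ± 0.182 in controls (SD, n = 3 each, limma adjusted p = 0.0162). None of these 4 had overlapping groups, but Gm44911 lost its call without exosome library 1 (0.0727) or 2 (0.0772), and Gm16179 without exosome library 2 (0.0555) or 3 (0.0516). Ppp1r2-ps4, copied from an inhibitor gene of protein phosphatase 1, had 0.212, 0.290 and 0.954 FPKM in the exosome libraries and 2.51, 2.79 and 0.392 FPKM in the control libraries, with overlap (limma adjusted p = 0.131, and 0.0227 without control library 3).

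The remaining 43 pseudogenes were weak, with no group mean above 0.977 FPKM, and 9 of them were higher with exosomes and 34 lower. Among them 4 rose (Gm21321, Gm6900, Gm9105 and D630033A02Rik, named after their values were seen) and 18 fell. Gm21321, a partial Cdk6 match, counted 5, 4 and 4 reads in the exosome libraries against 0 in each control library. Its limma adjusted p was 0.00512. Over all 89 pseudogenes, the opposite held in 9, with Rps27a-ps1 and Gm6333, described above, among them. These 9 had 0 reads in all 3 exosome libraries and a control mean between 0.0220 and 0.195 FPKM. Of these 9, 4 fell, and among them Gm19187 had the lowest limma adjusted p, at 0.00666, but did not pass relative to the shift of the table's median (0.294).

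At the threshold itself, AC169509.1 and Gm2991 lay just inside (both at a limma adjusted p of 0.0442), and AC126438.4 and Gm5451 just outside (0.0531 and 0.0543). AC169509.1, which stayed inside only without control library 1 and did not pass relative to the shift of the table's median (limma adjusted p = 0.315), averaged 0.176 FPKM with exosomes and 0.401 in controls, and AC126438.4, an Eloc copy inside Fam234a, averaged 0.183 FPKM with exosomes and 0.912 in controls.

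The reading frame was compared as a feature of the annotated sequence, without use of the FPKM values. It is not independent of the choice of members, which are annotated as unable to make the parent's protein. Nor is it independent of identity, since a copy with few differences has few that could break the frame. A frame as long as the parent's protein was intact in 9 of the 72 copies with a parent, and all 9 were near-identical copies (9 of 37, against 0 of 35 less identical ones). The 37 include unprocessed copies, unlike the 34 near-identical processed ones, and copies without a parent are not among the 35. They are Gm16418, Gm2991, Gm4895, Gm5451, Gm6741, Gm6900, Gm9396, Gm9843 and Rpl17-ps9. Among ribosomal copies, 4 of 10 near-identical and 0 of 5 less identical ones kept the frame. An open frame in the annotated sequence does not show that a protein is made.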

How the data were processed

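RNA of 3 exosome and 3 control libraries of MC3T3 cells was taken up in Trizol and sequenced after a SMARTer mRNA library kit, per the labels' protocols. The authors deposited FPKM values for genes they had selected as changed, per the name of the deposited table. Their aligner, counting, treatment of multiply mapped reads, build, annotation and thresholds are not given in the sources used here. Groups and replicate numbers come from the sample titles.

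Identifiers of 672 rows, of 680, were found in GENCODE M21 (GRCm38). The members and lists were chosen with earlier results of these data known. FPKM multiplied by exon length gave whole reads, within 0.02, for 661 genes. Of 1691 values between 2 and 21 reads, 74.7% were even, a pattern that counting both mates leaves, and errors are then larger than read numbers alone give. Parents were found with blastn 2.17.0 on the same strand, and an unnamed best match gave way to a named gene within 5% of its bit score. A gene counted as inside another if 50% of its exon bases lay in that gene's span.

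The main test was limma 3.58.1 under R 4.3.3, a two-sided test of log2(FPKM + 1), with group as the only term and Benjamini-Hochberg adjustment over 680 genes. Pairs of libraries with the same replicate number deviated from their group means with correlations of -0.135, 0.0767 and -0.222, so the numbers were not taken as pairs. Named are members with a group mean of at least 1 FPKM, the 10 largest rises and falls past the threshold without overlap, ribosomal copies, members whose parent is in the table, the 5 highest, families of at least 2 and the 2 on each side of the threshold. Alternatives were pseudocounts of 0.1 and 0.01, an FPKM minimum, median centring, a replicate block, limma-voom on the recovered reads, leaving out each library, a minimum of 10 reads and other limits of identity and coverage. The limits of 90% and 97% for near-identity were added after seeing the data.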

Additional observations from a re-analysis of the deposited data

How the results depend on the processing

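Of 89 pseudogenes, 54 passed the threshold, 20 higher and 34 lower, out of 403 genes of the table (105 higher, 298 lower). With a minimum mean of 1 FPKM, 26 pseudogenes (7 lower) and 162 genes (63 higher, 99 lower) passed. With a replicate block, 30 pseudogenes (13 higher, 17 lower) and 201 genes (54 higher, 147 lower) passed, and 28 of the 54 were kept. With a pseudocount of 0.01, 52 pseudogenes were called lower and 611 genes passed (455 lower). With limma-voom on the recovered reads, 52 pseudogenes were called lower and 624 genes passed (472 lower, 94.4% of 661), and all 54 pseudogene calls were kept. Centring on the median left 13 pseudogenes called lower, and 212 genes higher and 112 lower in the table. Leaving out 1 library gave 20 to 56 pseudogenes past the threshold (9 to 20 higher, 11 to 39 lower), and 20 of the 54 kept their calls in all 6 fits. For the table it gave 164 to 356 genes (48 to 78 higher, 116 to 280 lower). Without exosome library 2 the pseudogene count was lowest (20), and it moved by over 1.5 times also without exosome library 3 (25). The higher calls numbered 13 without control library 3, and the lower ones 19 without exosome library 1. Centring turned Gm6333 to 0.017, from -0.13 (adjusted p = 0.633), so that 1 of 5 less identical ribosomal copies was higher, while the other direction counts by class stayed within 1.5 times. The count over the whole table did not, as it moved from 177 to 360 higher of 680 genes. Comparisons of a class with the uncentred 26.0% of the table therefore change on centring. At a limit of 90% identity, 3 of 34 less identical processed copies were higher. A parent was assigned to 54 pseudogenes at 90% identity and to 67 at 80% coverage. Shallow counts limit the weak members, since the median pseudogene had 13.7 reads per exosome library and 16.3 per control library. The cause of these changes was not tested.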

Other observations

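D630033A02Rik, a transcribed processed pseudogene on chromosome 10 with no assigned parent, holds the locus of the microRNA gene Mirlet7i within its span, and was chosen for mention after its values were seen. It had 0.311, 0.248 and 0.316 FPKM in the exosome libraries and 0.0681, 0.186 and 0.0279 FPKM in the control libraries, without overlap (limma adjusted p = 0.0273, lost in all fits without 1 library but that without control library 2, at up to 0.0787). Gm6900, a copy of the translation start factor gene Eif1 with an intact frame, had 0.280, 0.483 and 0.513 FPKM in the exosome libraries and 0.148, 0 and 0 FPKM in the control libraries, also without overlap (limma adjusted p = 0.0171, and up to 0.0571 without exosome library 2 or 3). The copies AC126438.1 (Eif4a1) and AC126438.4 (Eloc) both lie inside Fam234a on chromosome 17 and were both lower with exosomes, at 0.191 FPKM with exosomes and 0.614 in controls for AC126438.1 and 0.183 FPKM with exosomes and 0.912 in controls for AC126438.4 (limma adjusted p = 0.0341 and 0.0531). The call of AC126438.1 was lost in all fits without 1 library but that without control library 1 (up to 0.0932), and relative to the shift of the table's median (0.0793).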
